A study of Coturnix japonica with 54 samples.

Results

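Nuclear genes of oxidative phosphorylation were followed through 1 simulated year of day lengths in the mediobasal hypothalamus of male Japanese quail (Coturnix japonica). The set holds every gene whose name marks it as a subunit of complex I (NDUFA, NDUFB, NDUFC, NDUFS and NDUFV genes), complex II (SDHA to SDHD), complex III (UQCR genes), complex IV (COX4 to COX8 genes) or complex V (ATP5 genes). It came to 72 of the 19916 gene names in the table of CPM values (read counts scaled to the same total in every library). By complex there were 34 genes of complex I, 4 of complex II, 8 of complex III, 8 of complex IV and 18 of complex V.

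Polyadenylated RNA of 54 birds, 6 in each of 9 groups, was sequenced as direct cDNA on Oxford Nanopore flow cells. All birds began on 16 h of light per day. Day length was then stepped down and up again, with 2 weeks at each step, so that a group's day length and its place in the sequence are both known. The groups in step order were 16La, 14La, 12La and 10La, with 16, 14, 12 and 10 h of light, then 8L with 8 h, then 10Lv, 12Lv, 14Lv and 16Lv with 10, 12, 14 and 16 h. Names ending in a were taken to belong to the autumnal arm, with declining days, and names ending in v to the vernal arm, with rising days. The labels name no genotype or drug. Birds for tissue collection were picked pseudo-randomly with body mass as a measure, and age, date and batch are not given in the labels used here.

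Complex I passes electrons from NADH to ubiquinone, complex II passes electrons from succinate to the same carrier, complex III passes them on to cytochrome c, and complex IV hands them to oxygen. Complexes I, III and IV pump protons as they work, and complex V uses the proton gradient to make ATP. Most subunits are encoded in the nucleus and a few in the mitochondrial genome, so a complete set of enzymes needs both. In neurons most ATP comes from this pathway, and the mediobasal hypothalamus is the brain region through which birds turn day length into a reproductive response.

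Reads recovered from the CPM steps ranged from 251382 to 1895615 per library, with a median of 938816. Each group held 1 shallow library, with between 251236 and 379018 reads in named genes, while the other libraries had 625528 or more. In every group but 16La that library was the third by the number in the sample titles; the labels name no batch. Replicates 3 and 6 of 16Lv differed by less than sampling noise and were counted as 1 sample, which left 53 libraries and n = 5 in 16Lv. Markers of the labelled tissue were read in these libraries. The 8 neuronal markers, such as MAP2 and SNAP25, summed to between 20617 and 52156 CPM. MAP2 alone made up most of that sum in 14La replicate 4 (33241 CPM) and 16La replicate 1 (28536 CPM). The 11 hypothalamic neuropeptide genes summed to between 513 and 3539 CPM. Oligodendrocyte markers summed to between 3960 and 11469 CPM, astrocyte and tanycyte markers to between 491 and 1162 CPM, and ependymal markers to between 36.6 and 192 CPM. Microglial markers reached 112 CPM at most, endothelial markers 68.1 CPM, pituitary markers 361 CPM and red blood cell globin and related genes 1640 CPM. These are bulk samples, in which fewer cells of a type and less RNA per cell cannot be told apart. Nothing in the labels says more of the birds than that each gave a library, so p-values measure the spread between these samples.

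The respiratory genes were well measured. Of the 72 genes, 68 had reads in every library and 65 were at 10 CPM or more in every library. Mean levels ran from 3.85 to 1671 CPM, with 12 genes above 500 CPM and 12 below 50 CPM. Together they took 2.06% of all reads on average, between 1.53% and 2.98% in single libraries. All but ATP5SL passed the filter of 10 CPM in at least 6 libraries, so 71 were tested. Names of the mitochondrially encoded subunits were not found among the gene names, and those subunits are not analysed here.

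No respiratory gene passed the test in any comparison of day lengths. With limma on log2(TMM-scaled CPM + 1) and Benjamini-Hochberg adjustment over the 8268 genes tested, 0 of 71 passed an adjusted p of 0.05 in the difference among the 9 groups, where 0.0363% of all genes were called. At an unadjusted p under 0.05 stood 1 of the 71 genes and 3.7% of all genes. With edgeR on the recovered reads and with limma-voom 0 of the 71 were called as well, here and in each of the other 17 comparisons. Of all 8268 genes, edgeR called 3 and limma-voom 4 in this test.

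Little of the variation in these genes lay between groups. The 9 group means of a gene differed by a median of 1.25-fold between highest and lowest, and 65 of the 72 stayed under 1.5-fold. Only NDUFS3 (2.55-fold) and SDHC (2.09-fold) exceeded 2-fold, both among the genes with a mean below 50 CPM. The share of a gene's log2 variance that lay between groups had a median of 11.3% over the 71 genes, against 13.9% over all genes tested and 15.4% from the degrees of freedom alone. Within a group the SD had a median of 0.29 log2 units, against 0.81 over all genes tested. It ran from 0.17 for UQCRB, a ubiquinone-binding subunit of complex III, to 1.43 for SDHC. The respiratory genes and all genes were not matched for level. Among the respiratory genes the widest spreads were in genes with few reads, SDHC, ATP5S (0.90) and NDUFS3 (0.77).

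**Figure D1:**
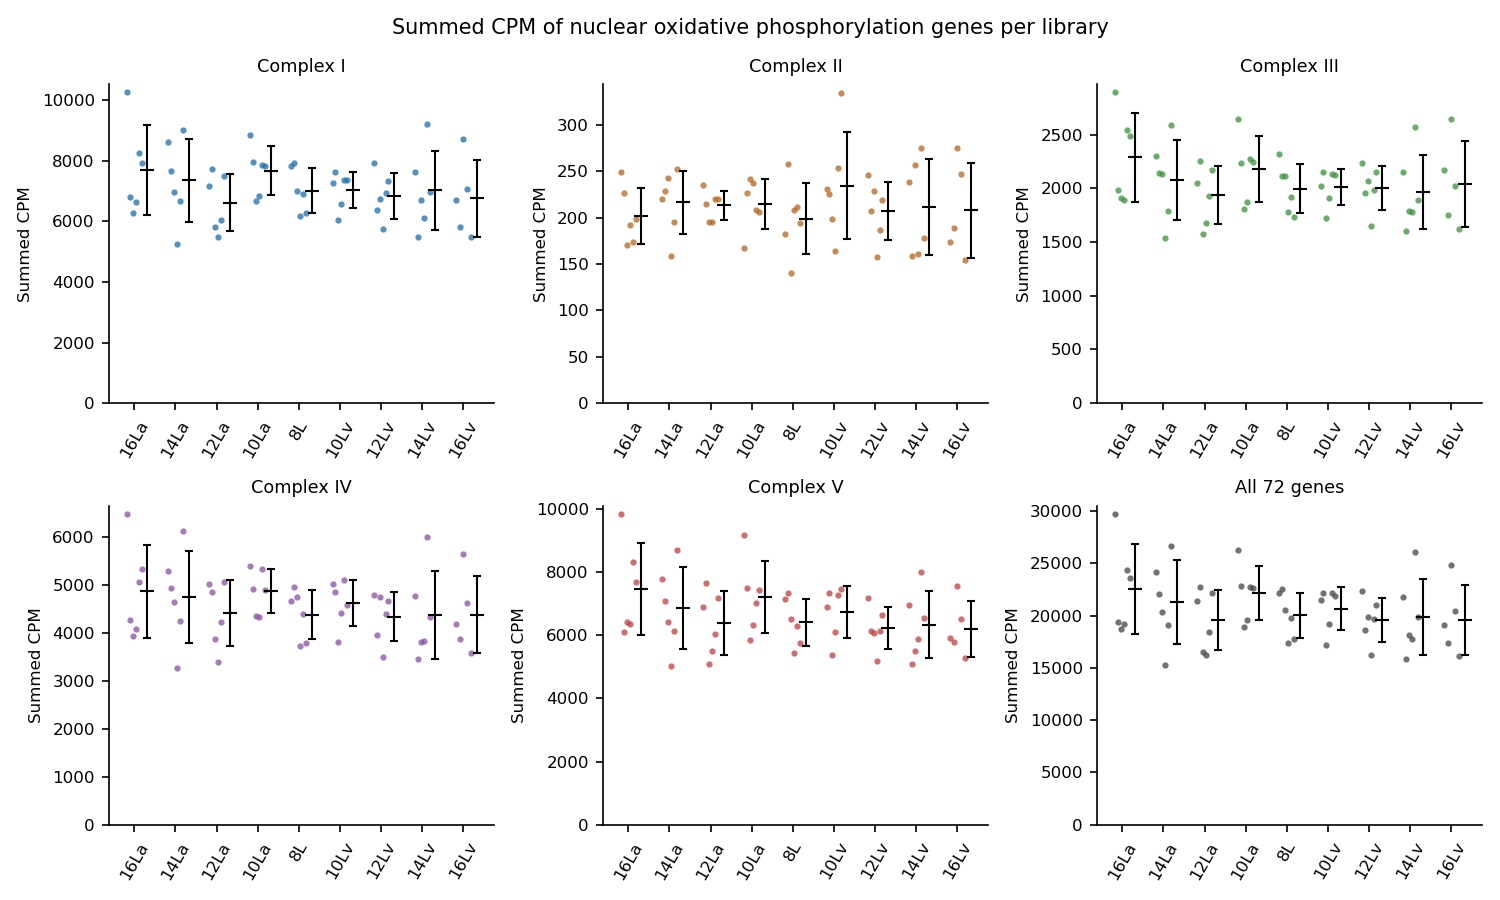
Summed CPM per library of the genes of complexes I to V and of all 72 genes (vertical axes, CPM) in the 9 photoperiod groups in step order (horizontal axis); points are libraries and bars are group means ± SD. In every panel the ranges of the 9 groups overlap; all 72 genes together ran from 15252 to 29763 CPM.

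The summed level of the pathway lay in similar ranges in all groups. All 72 genes summed to 22510 ± 4296 CPM in 16La (SD, n = 6), 21274 ± 4012 in 14La, 19586 ± 2865 in 12La and 22168 ± 2627 in 10La. The sum was 20015 ± 2173 CPM in 8L, 20664 ± 2052 in 10Lv, 19618 ± 2100 in 12Lv, 19906 ± 3639 in 14Lv and 19596 ± 3371 in 16Lv (n = 5). Group means thus spanned 1.15-fold, while single libraries spanned 1.95-fold, from 14La replicate 4 to 16La replicate 1. The group means of the complexes spanned 1.16-fold for complex I, 1.18-fold for complexes II and III, 1.12-fold for complex IV and 1.20-fold for complex V. With TMM scaling the mean sum of all 72 genes was lowest in 10Lv, at 19340 CPM, and still highest in 16La, at 22434 CPM. A sum over genes was given no test.

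Libraries high for one complex were high for the others. Over 53 libraries complex I summed to 7121 ± 1050 CPM, complex III to 2057 ± 304, complex IV to 4566 ± 705 and complex V to 6656 ± 1052, each with a coefficient of variation (CV) between 14.7% and 15.8%. The ratio of complex III to complex I was 0.289 with a CV of 4.62%, that of complex IV to complex I was 0.641 with 4.64%, and that of complex V to complex I was 0.935 with 4.83%. Counting alone would give CVs of 1.44% for complex I, 2.67% for complex III, 1.79% for complex IV and 1.497% for complex V. These complexes share a library and its depth in each point, so the ratios are descriptions. Genes that move together in a library are not separate observations. Counts of genes by sign, given below, are therefore descriptions too and can rest on few libraries.

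Complex II kept a looser ratio to complex I, 0.0300 with a CV of 15.8%. It rested on 193 reads per library, for which counting alone gives a CV of 8.29%. The same library, 14La replicate 4, was lowest and 16La replicate 1 highest for complexes I, III, IV and V. Those 2 libraries were also lowest and highest for the sum of 71 ribosomal protein genes, a set chosen after the values were seen, whose CV was 14.1%. After TMM scaling the CV of all 72 genes was 14.0% and the extremes were other libraries, 12La replicate 3 and 10La replicate 1. What sets these library differences was not tested.

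**Figure D2:**
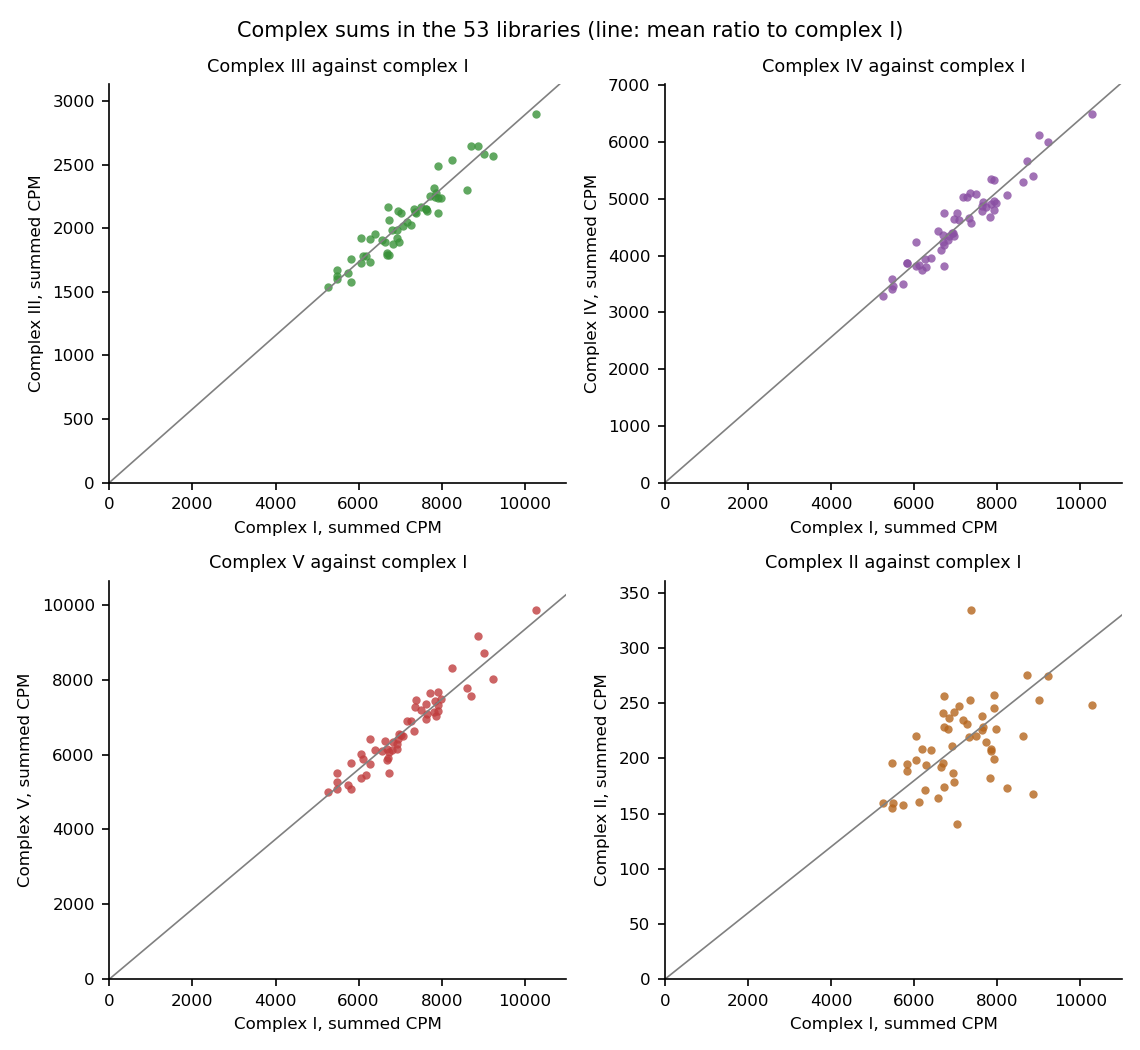
Summed CPM of complexes III, IV, V and II (vertical axes) against the summed CPM of complex I (horizontal axis) in the 53 libraries. Each complex has its own colour, and the line is the mean ratio. Points of complexes III, IV and V lie close to the line (CVs of the ratio 4.62%, 4.64% and 4.83%), those of complex II scatter more (15.8%).

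The passage from long to short days was measured by 8L minus 16La, 16 h against 8 h of light at the bottom of the cycle. The 8L group also came later in the sequence, so day length and time cannot be told apart in this pair. None of the 71 genes was called (0% of all genes called), 1 stood at an unadjusted p under 0.05, and 4.14% of all genes did. Of all genes, edgeR on the recovered reads and limma-voom called 0 each. Log2 changes were negative for 55 of 71 genes with a median of -0.12, while 48.6% of all genes were negative with a median of 0.01. The size of that median rested on single libraries: it was -0.05 without 16La replicate 1, -0.08 without 16La replicate 6 or 8L replicate 4, and -0.20 without 16La replicate 2. Without the shallowest library of each group it was -0.21. Negative values made up 27 of 34 in complex I, 2 of 4 in complex II, 7 of 8 in complex III, 5 of 8 in complex IV and 14 of 17 in complex V. The count was 57 of 71 in CPM of the library total with no TMM scaling and 55 of 71 with relative log expression (RLE) scaling.

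NDUFA5, an accessory subunit in the arm of complex I that binds ubiquinone, stood first in that comparison. Its level had a lowest, median and highest value of 155, 222 and 305 CPM in 16La and of 125, 170 and 216 CPM in 8L. The groups overlapped, although the median of 8L lay near the lower end of 16La. The log2 change was -0.38 (SE 0.17, limma adjusted p = 0.999).

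UQCRQ, a small subunit of complex III, had 438, 531 and 681 CPM in 16La against 380, 431 and 548 CPM in 8L, a log2 change of -0.28 (SE 0.14). ATP5I, the e subunit in the membrane part of complex V, had 581, 694 and 931 CPM in 16La against 541, 563 and 714 CPM in 8L, a log2 change of -0.25 (SE 0.14). Both genes overlapped widely between the groups. In the other direction stood SDHB, the iron-sulphur subunit of complex II, with 30.7, 61.1 and 95.5 CPM in 16La and 59.3, 76.6 and 118 CPM in 8L. Its log2 change was 0.39 (SE 0.28). NDUFA10, an accessory subunit of complex I, followed at 0.18 (SE 0.17), and UQCRC2, a core protein of complex III, at 0.24 (SE 0.25). These 3 positive values fell when 1 library was left out, to 0.21 for SDHB and 0.08 for UQCRC2 without 16La replicate 3, and for NDUFA10 to 0.12 without 16La replicate 2 and 0.10 without 8L replicate 3. All had an adjusted p of 0.999 in limma.

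The return to long days was measured by 16Lv minus 8L. Here too the groups differ in time in the sequence as well as in day length. Again 0 of 71 genes were called (0% of all genes), 0 stood at an unadjusted p under 0.05 against 5.38% of all genes, and edgeR on recovered reads and limma-voom each called 0 of all genes. The median over the 71 genes was 0.01 and 41 were positive, but with CPM of the library total only 27 were. With 1 library left out at a time the median ran from -0.05 to 0.06, so the set had no stable direction here. All genes tested had a median of -0.06, with 56.0% negative (60.7% with the library total). Positive values were found for 18 of 34 genes in complex I, 3 of 4 in complex II, 5 of 8 in complex III, 6 of 8 in complex IV and 9 of 17 in complex V under TMM scaling.

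COX7B, an accessory subunit of complex IV, had the smallest p in that comparison. In 8L its lowest, median and highest levels were 45.2, 93.8 and 141 CPM. The 5 samples of 16Lv were at 155, 83.5, 156, 154 and 95.4 CPM, so 3 of 5 lay above every bird of 8L and the other 2 lay within its range. The log2 change was 0.65 (SE 0.35, limma adjusted p = 0.888). COX7B was at 39.8, 74.3 and 131 CPM in 16La, which has the same day length as 16Lv, and at 68.9, 134 and 188 CPM in 10La.

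SDHD, a membrane anchor of complex II, had a log2 change of 0.47 (SE 0.29) from 8L to 16Lv, with 21.2, 30.9 and 46.3 CPM in 8L and a median of 46.7 CPM in 16Lv. UQCR10, a small subunit of complex III, had 0.27 (SE 0.20). Values below 0 were led by NDUFB1 and NDUFA9, accessory subunits of complex I, at -0.17 (SE 0.13) and -0.28 (SE 0.22); without the averaged 16Lv library NDUFA9 was at -0.44. The smallest adjusted p among these was 0.941 in limma.

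The groups at the ends of the cycle share 16 h of light. They differ in what came before and in time in the sequence, which cannot be told apart. For this pair of groups 0 of 71 genes were called, against 0.0242% of all genes, and 2 stood at an unadjusted p under 0.05, against 5.72% of all genes. The log2 change from 16La to 16Lv was 0.77 for COX7B (SE 0.35, limma adjusted p = 0.834) and -0.95 for NDUFS3 (SE 0.46, limma adjusted p = 0.845). Both were named after their values were seen. Of the 71 genes 50 were negative under TMM scaling, 59 with the library total and 47 with RLE scaling. Over all genes 54.8%, 59.6% and 52.1% were negative in the same order.

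**Figure D3:**
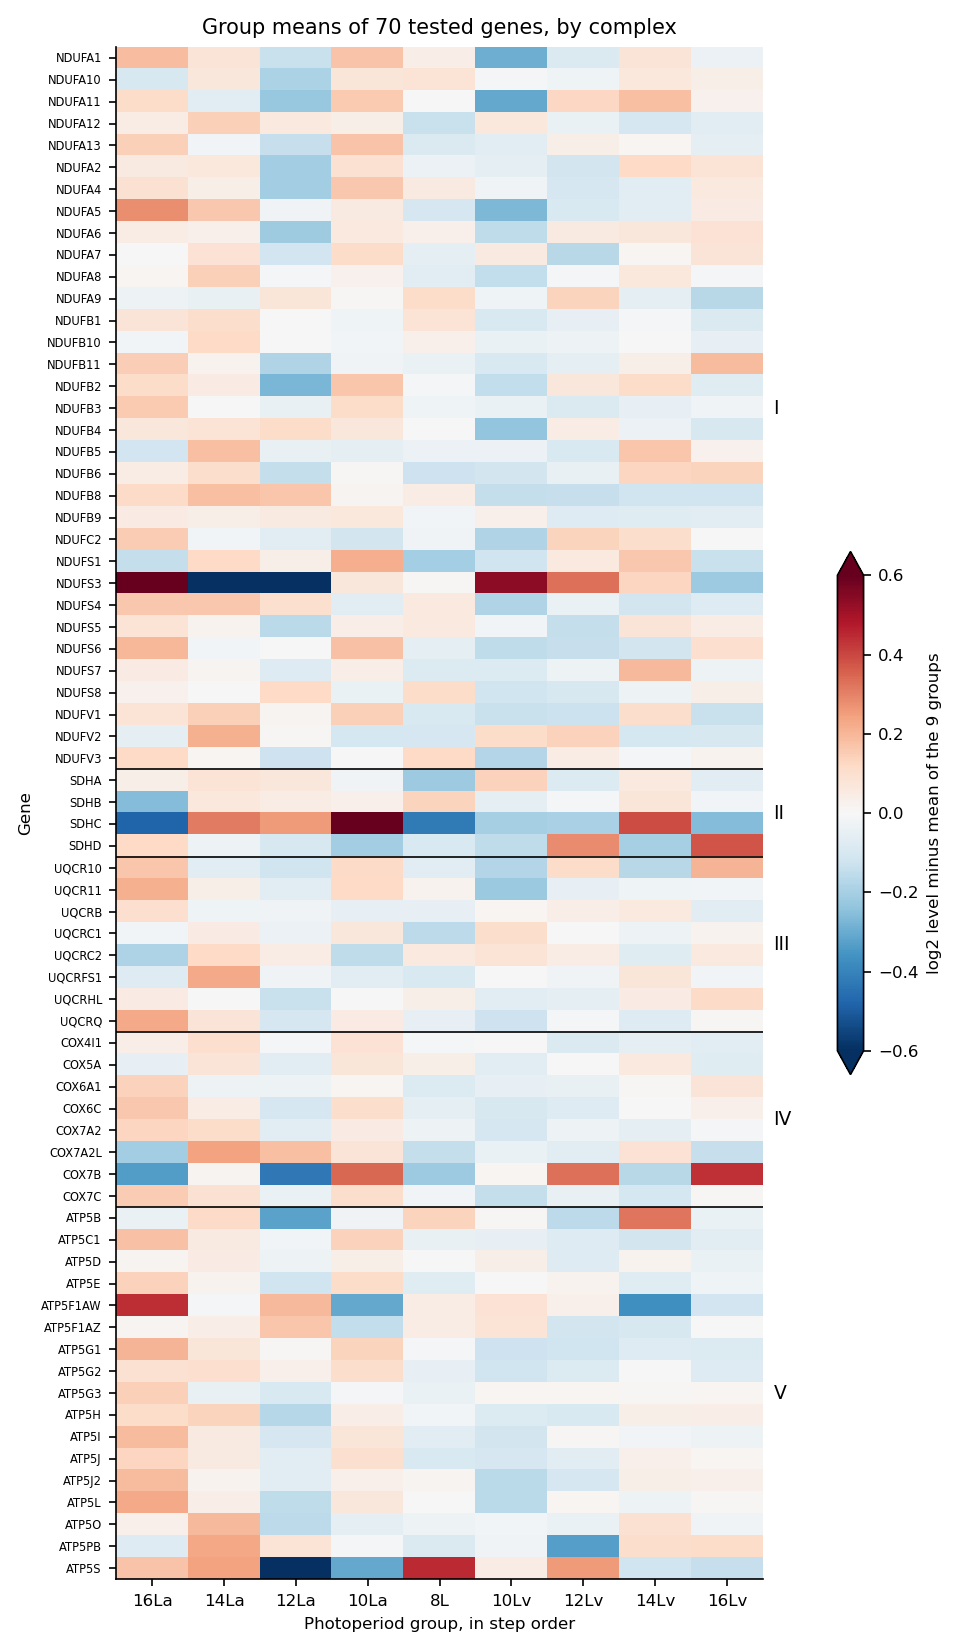
Group mean log2 level of 70 of the 71 tested genes minus that gene's mean over the 9 groups (colour, log2 units from -0.6 to 0.6), with genes ordered by complex and groups in step order. Most cells are pale; median deviations over the 71 genes ran from -0.07 in 10Lv to 0.09 in 16La.

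Birds on the same day length were also compared between the arms of the cycle. The average of 10La, 12La and 14La was taken from that of 10Lv, 12Lv and 14Lv. Each rising group came later in the sequence than its declining partner, so arm and time cannot be told apart. In this comparison of rising with declining days 0 of 71 genes were called, against 0.0121% of all genes. At an unadjusted p under 0.05 were 5 of 71 genes (7.04%) and 4.79% of all genes, and edgeR on recovered reads and limma-voom called 0 of all genes. The median of the 71 genes was -0.04 with 48 negative (45 with the library total, 42 with RLE scaling), and all genes had a median of -0.03 with 54.4% negative. With 1 library left out at a time the median of the 71 ran from -0.07 to -0.01, the latter without 14Lv replicate 3. By complex 20 of 34 were negative in complex I, 3 of 4 in complex II, 5 of 8 in complex III, 7 of 8 in complex IV and 13 of 17 in complex V.

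NDUFS3, a core subunit of complex I in the arm that reaches into the mitochondrial matrix, had the smallest p in the comparison of the arms. Its lowest, median and highest levels were 0, 12.1 and 29.2 CPM in 14La, 3.42, 12.6 and 18.4 CPM in 12La, and 9.80, 19.6 and 52.5 CPM in 10La. On the rising arm they were 21.5, 26.7 and 44.4 CPM in 10Lv, 20.4, 22.6 and 25.3 CPM in 12Lv, and 13.0, 18.7 and 27.1 CPM in 14Lv. The birds of 12Lv all lay above those of 12La, while the ranges at 10 h and at 14 h overlapped. How many of all genes separate in this way at 12 h was not counted.

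The log2 change of NDUFS3 between the arms was 0.83 (SE 0.25, limma adjusted p = 0.840). Across the alternative settings it ran from 0.44 to 0.98, with adjusted p from 0.334 to 1.00. The lowest value came without the shallowest library of each group (adjusted p = 0.722), a setting chosen after seeing the data. The lowest levels in 14La and 12La, 0 and 3.42 CPM, and the highest in 16La and 10Lv, 43.8 and 44.4 CPM, were all in those shallow libraries. In the pairs of equal day length the log2 change of NDUFS3 was 0.99 (SE 0.44) at 12 h and 1.04 (SE 0.44) at 14 h. At 10 h it was only 0.47 and did not reach an unadjusted p under 0.05 in limma. Without 12La replicate 3 the value at 12 h was 0.67, and without 14La replicate 3 the value at 14 h was 0.39.

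NDUFS3 rests on few reads, 1001 over all libraries and between 64 and 174 in a group. 14La replicate 3 had no read of it, which at that depth allows up to 7.92 CPM (3 counts; counting error only). In the remaining groups its lowest, median and highest levels were 23.0, 28.9 and 43.8 CPM in 16La and 13.6, 18.6 and 21.8 CPM in 8L. The 5 samples of 16Lv were at 11.3, 11.6, 14.9, 19.3 and 17.5 CPM, all below every bird of 16La. The share of all genes that separate between 16La and 16Lv was not counted either. In order of the median, from the highest, the groups ran 16La, 10Lv, 12Lv, 10La, 14Lv, 8L, 16Lv, 12La and 14La, and neighbours in that order overlapped throughout.

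The step of NDUFS3 from 16La to 14La had the smallest unadjusted p of any single step for these genes, with a log2 difference of -1.64 (SE 0.44, limma adjusted p = 1.00). Without 14La replicate 3 the difference was -1.0. NDUFS3 also led the difference among the 9 groups (limma adjusted p = 0.999), with 34.3% of its variance between groups. NDUFA5 and NDUFS4 followed there, with the same adjusted p.

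**Figure D4:**
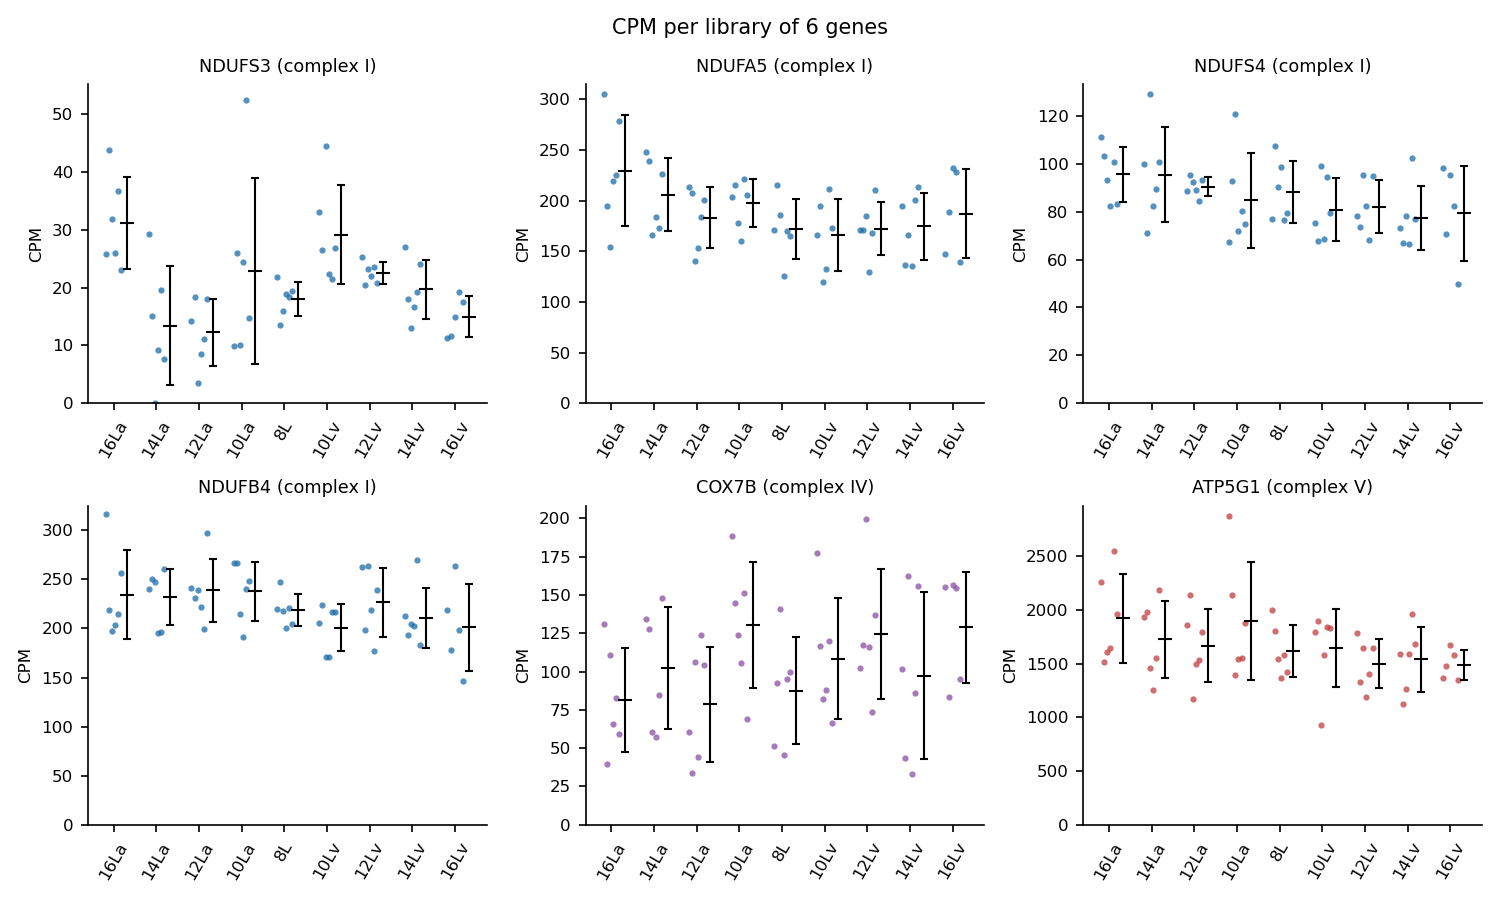
CPM per library (vertical axes) of NDUFS3, NDUFA5, NDUFS4, NDUFB4, COX7B and ATP5G1 in the 9 groups in step order; points are libraries. NDUFS3 reaches 0 in 14La and 52.5 CPM in 10La; the ranges of most groups overlap for every gene shown.

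On the lower side of the comparison of the arms stood NDUFB4, an accessory subunit of the membrane arm of complex I, with a log2 change of -0.16 (SE 0.066). NDUFS4, an accessory subunit on the NADH side whose loss causes Leigh syndrome in humans, had -0.17 (SE 0.074), and NDUFS6, a zinc-binding accessory subunit, had -0.19 (SE 0.084). NDUFA5, named after its values were seen, had -0.21 (SE 0.096). Their adjusted p lay between 0.960 and 0.980 in limma. Positive values beside NDUFS3 were small, with 0.07 (SE 0.065) for UQCRB and 0.28 (SE 0.30) for ATP5S. Neither kept its sign without the shallowest library of each group (-0.0036 and -0.015), and ATP5S was at 0.04 without 10La replicate 3.

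NDUFS4 and NDUFB4 varied little between birds. NDUFS4 ranged from 71.1 to 129 CPM in 14La, 84.4 to 95.2 in 12La and 67.5 to 121 in 10La, with medians of 94.7, 90.8 and 77.7 CPM. On the rising arm it ranged from 67.8 to 99.1 CPM in 10Lv, 68.2 to 95.6 in 12Lv and 66.4 to 102.5 in 14Lv, with medians of 77.4, 80.3 and 75.3 CPM. All 3 pairs of groups overlapped. For NDUFB4 the medians were 244, 236 and 244 CPM in 14La, 12La and 10La and 211, 229 and 204 CPM in 10Lv, 12Lv and 14Lv, again with overlap at every day length. Between groups lay 32.3% of the variance of NDUFS4 and 30.3% of that of NDUFB4.

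Each day length was also compared on its own. At 10 h 53 of 71 genes were negative (47 with the library total, 51 with RLE scaling), against 51.9%, 46.2% and 49.8% of all genes. Of the 71 genes 0 were called (0.0121% of all genes), and 5 were at an unadjusted p under 0.05 (4.74% of all genes). Those 5, named after their values were seen, were NDUFA1 (-0.47, SE 0.18), NDUFA11 (-0.46, SE 0.22), NDUFS6 (-0.33, SE 0.15) and NDUFB4 (-0.30, SE 0.11) of complex I and UQCR11 (-0.34, SE 0.15) of complex III. Without 10La replicate 1 the values were -0.26 for NDUFA1, -0.22 for NDUFS6 and -0.21 for UQCR11. All 8 complex IV genes had lower group means on the log2 scale in 10Lv than in 10La under each of the 3 scalings. The same 8 were also all lower in 8L than in 10La, and 7 of 8 were higher in 10La than in 12La, under each scaling. None of them passed the test.

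At 12 h 0 of 71 were called (0% of all genes; 4 of the 71 and 4.86% of all genes at an unadjusted p under 0.05). Those 4 were NDUFS3, COX7B (0.76, SE 0.34), NDUFB2 (0.34, SE 0.16) and ATP5PB, the b subunit of the complex V side stalk (-0.41, SE 0.20), which was at -0.26 without 12Lv replicate 4. At 14 h 0 of 71 were called (0% of all genes; 2 of the 71 and 3.6% of all genes at an unadjusted p under 0.05), namely NDUFS3 and NDUFS4 (-0.27, SE 0.13). For the 12 h comparison edgeR on recovered reads and limma-voom each called 0 of all genes, and so they did at 14 h. All of these were named after their values were seen.

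A linear slope on hours of light asked whether levels followed day length over all 9 groups. None of the 71 genes was called (0% of all genes), and 1 was at an unadjusted p under 0.05 against 5.01% of all genes. Of all genes, edgeR on recovered reads and limma-voom called 1 each, no respiratory gene among them. Under TMM scaling 56 of 71 slopes were positive, with a median of 0.0077 log2 units per hour, while 51.8% of all genes had negative slopes. With CPM of the library total only 34 of 71 were positive and the median was -0.00074, so the direction of the set rested on the scaling. With RLE scaling 52 were positive. All genes shifted as well, with 60.4% negative (median -0.0097) under the library total and 52.9% negative under RLE scaling.

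NDUFA5 had the smallest unadjusted p among the slopes, at 0.038 log2 units per hour (SE 0.015, limma adjusted p = 0.942). Its median level was 222 CPM in 16La, 205 in 14La, 192 in 12La, 205 in 10La, 170 in 8L, 169 in 10Lv, 171 in 12Lv, 180 in 14Lv and 189 in 16Lv. Medians of the rising arm thus all lay below those of the declining arm at the same day length, within overlapping ranges. SDHD had 0.042 per hour (SE 0.026) and UQCRQ 0.021 (SE 0.013). Negative slopes were led by NDUFA9 (-0.022, SE 0.019), SDHB (-0.021, SE 0.025) and NDUFA10 (-0.0073, SE 0.016). The slope of SDHB was -0.011 without 16La replicate 3 and -0.014 without 10Lv replicate 6, and that of NDUFA10 ran from -0.014 to -0.0027 with 1 library left out.

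A slope on step order, from 1 for 16La to 9 for 16Lv, tested for a drift along the sequence of treatments. None of the 71 genes was called (0.0242% of all genes), and 3 were at an unadjusted p under 0.05 against 5.62% of all genes. They were NDUFS4 at -0.036 log2 units per step (SE 0.012, limma adjusted p = 0.695), NDUFA5 at -0.034 (SE 0.016) and NDUFB4 at -0.024 (SE 0.011), all named after their values were seen. Slopes were negative for 53 of 71 genes, 57 with the library total and 46 with RLE scaling. Over all genes 56.7%, 60.2% and 53.2% were negative in the same order. Since each bird's step also fixes its time in the sequence, step order and duration of the experiment cannot be told apart.

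Among the 8 steps between neighbouring groups 0 of 71 genes were called in each. Over all genes the percentage called was 0.0121 for the steps from 14La to 12La, from 12La to 10La and from 14Lv to 16Lv, and 0 for the other 5. At an unadjusted p under 0.05 stood 2, 1, 2, 0, 2, 1, 1 and 0 of the 71 genes in step order, against 3.42%, 3.46%, 4.34%, 4.17%, 3.92%, 4.56%, 4.14% and 5.42% of all genes. Of all genes, edgeR on the recovered reads called at most 1 in a step, as did limma-voom.

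From 14La to 12La 61 of 71 genes were lower, with a median log2 change of -0.12 (59 with the library total, 59 with RLE scaling). Of all genes 53.7% were lower (52.4% and 52.3%). From 12La to 10La 49 of 71 were higher with a median of 0.12 (55 and 50), while 51.4% of all genes were lower (47.8% and 50.4%). Both steps share the birds of 12La, and their medians were not recomputed with libraries left out 1 at a time. The sum of the 71 ribosomal protein genes was 30957 CPM in 14La, 30587 in 12La and 34950 in 10La. With TMM scaling it was 31141, 30591 and 34399. In CPM of the library total that sum had its lowest group mean in 12La and its highest in 10La. With TMM scaling its lowest group mean was in 10Lv, at 30496 CPM. The ribosomal genes thus shared the rise from 12La to 10La, while their fall from 14La to 12La was slight. The mean ratio of the 72 genes to the ribosomal sum was 0.686 in 14La, 0.640 in 12La and 0.634 in 10La. NDUFB2, an accessory subunit of the membrane arm of complex I, had 714, 836 and 1060 CPM (lowest, median, highest) in 12La against 738, 1081 and 1294 CPM in 14La and 945, 1150 and 1686 CPM in 10La. Its log2 changes were -0.32 (SE 0.16) and then 0.44 (SE 0.16, limma adjusted p = 0.998). Of the 9 groups, in CPM of the library total, 12La held the lowest mean of 21 of the 72 genes and 16La the highest mean of 28. Those counts were not made over all genes, and 16La holds replicate 1, the library with the highest sum of these genes. With TMM scaling 54 of the 71 genes lay below their own mean over the groups in 10Lv, against 50 in 12La. That left 17 and 21 of the 71 above it, against 48.1% and 53.5% of all genes in the same order. The middle steps depended on scaling. From 8L to 10Lv 45 of 71 genes were negative with TMM (55.3% of all genes) and 23 with the library total (44.6%). The medians of the 71 were -0.06 and 0.04. From 10Lv to 12Lv 24 of 71 genes were negative with TMM (46.4% of all genes) and 50 with the library total (57.1%). The median of all genes moved there from 0.03 to -0.07.

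**Figure D5:**
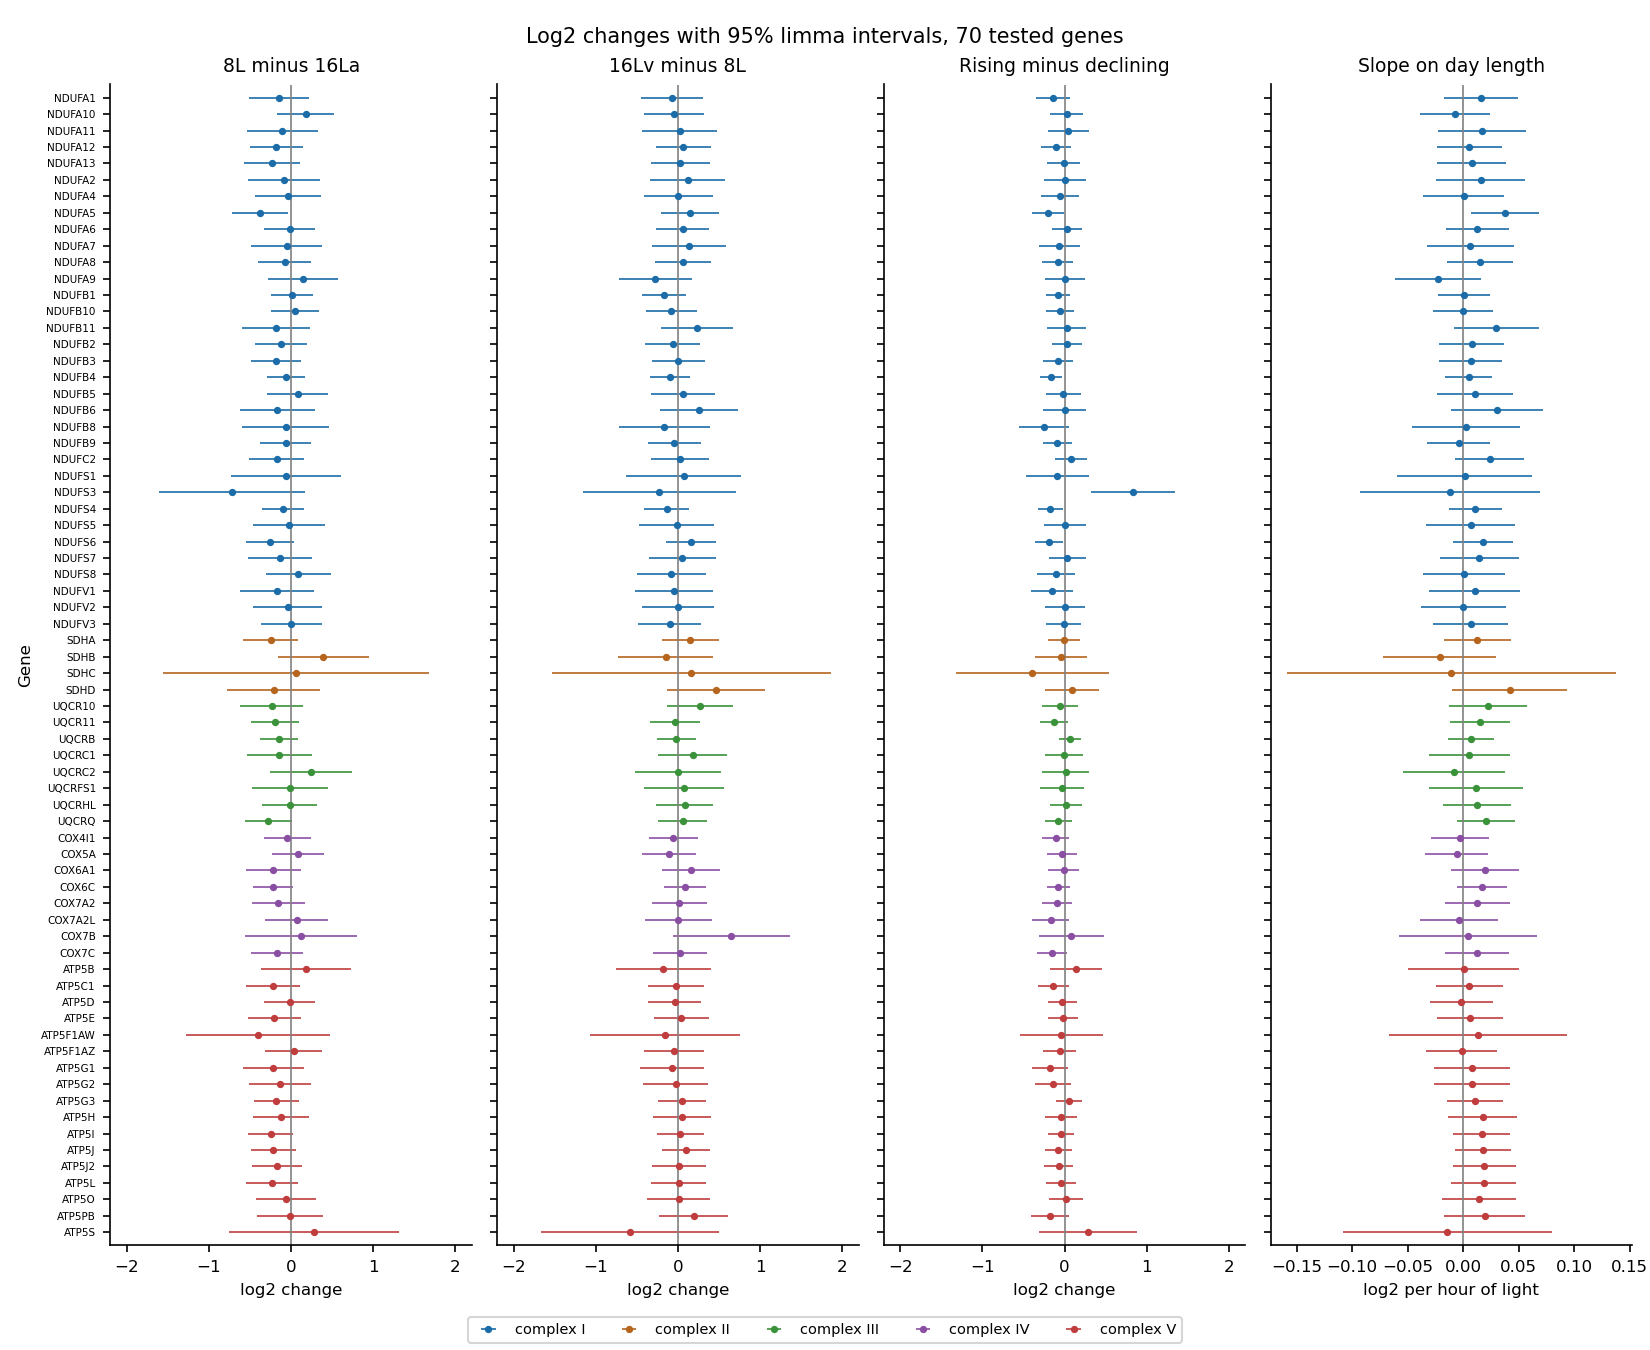
Log2 changes (horizontal axis) of 70 of the 71 genes (vertical axis) with 95% limma intervals, coloured by complex, in 4 comparisons, namely short against long days (8L minus 16La), the return to long days, rising against declining days, and the slope on hours of light. Most intervals include 0 and most lie within a 2-fold change either way; the intervals of SDHC are the widest.

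The 95% intervals give the range of changes that these libraries allow for each gene. For 8L minus 16La the interval of 67 of 71 genes lay within a 2-fold change either way and that of 53 within 1.5-fold. The median half-width was 0.35 log2 units. Over all genes tested, which were not matched for level, it was 0.94, and 3023 of 8268 lay within 2-fold. For 16Lv minus 8L 64 of 71 lay within 2-fold and 53 within 1.5-fold, and for the comparison of the arms 69 and 68. Over 8 h of light the interval of the slope lay within 2-fold for 70 genes and within 1.5-fold for 66. SDHC, a membrane anchor of complex II, had a half-width too broad for either bound, from -1.56 to 1.67 in 8L minus 16La.

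The genes with the most reads in each complex had small differences between 8L and 16La. In complex I the log2 change 8L minus 16La was -0.12 (SE 0.16) for NDUFB2, 0.0049 (SE 0.13) for NDUFB1 and -0.18 (SE 0.15) for NDUFB3, accessory subunits of the membrane arm. In complex III it was -0.19 (SE 0.15) for UQCR11, -0.28 (SE 0.14) for UQCRQ and -0.02 (SE 0.16) for UQCRHL, listed as a copy of the hinge subunit. In complex IV it was -0.05 (SE 0.14) for COX4I1, -0.16 (SE 0.16) for COX7A2 and -0.22 (SE 0.17) for COX6A1. In complex V it was -0.22 (SE 0.19) for ATP5G1 and -0.18 (SE 0.14) for ATP5G3, which both encode the c subunit of the rotor ring, and -0.22 (SE 0.16) for ATP5C1, the gamma subunit of the central stalk. None of these passed the test and each interval included 0.

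Complex II has no proton pump and also serves the tricarboxylic acid cycle. SDHA, the flavoprotein that oxidises succinate, had 84.1, 85.96 and 123 CPM in 16La and 39.8, 85.1 and 96.1 CPM in 8L, a log2 change of -0.25 (SE 0.16). In 10Lv it was at 95.7, 103.4 and 118 CPM, above all but 1 bird of 8L, with a log2 change from 8L of 0.36 (SE 0.16, adjusted p = 0.999; named after its values were seen). Without 8L replicate 3, the lowest bird, it was 0.18. SDHC was read at 0 in 5 libraries, where 3 counts would be between 2.92 and 11.9 CPM, so its low values lie at the limit of depth. Its medians lay between 7.34 CPM in 12Lv and 18.2 CPM in 10La.

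Some names in the set need care. NDUFA4 is counted by name with complex I but is now placed in complex IV; its log2 change was -0.04 (SE 0.20) for 8L minus 16La. COX7A2L, a factor that joins complexes III and IV, had 55.7, 65.1 and 92.2 CPM in 16La and 54.9, 100 and 137 CPM in 14La, a log2 difference of 0.45 (SE 0.19, adjusted p = 1.00; named after its values were seen). ATP5S and ATP5SL match the names of complex V but are not subunits of it. The alpha subunit of complex V was listed under 2 names, ATP5F1AW with 1503 reads and ATP5F1AZ with 7327, and 16.6 ± 5.76% of their reads stood under the first (SD, n = 53). In chicken such letters name copies on the sex chromosomes, and males carry no W chromosome, so the split between the copies is uncertain. The inhibitor ATP5IF1 was not among the names read.

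Other genes of energy metabolism gave the same count of calls, 0, where no comparison called more than 3 of all 8268 genes. With so few calls over all genes, a count of 0 in short lists says little about them. Of 30 tested assembly factors of the respiratory complexes, 14 genes of the tricarboxylic acid cycle, 13 of glycolysis, 12 of mitochondrial biogenesis and dynamics, 8 mitochondrial carriers and porins, 6 of oxidant defence and 3 further respiratory chain genes, 0 were called in any of the 18 limma comparisons. For 8L minus 16La the median log2 change was 0.04 for assembly factors, 0.08 for the cycle, -0.08 for glycolysis (12 of 13 negative), 0.20 for biogenesis, 0.02 for carriers, 0.08 for oxidant defence and -0.15 for the 3 others. For the comparison of the arms the medians were -0.02, -0.07, 0.01, -0.19, -0.11 (8 of 8 negative), -0.01 and -0.06 in the same order. The 71 genes had -0.12 and -0.04 in these comparisons. All genes tested had medians of 0.01 and -0.03, with 48.6% and 54.4% negative.

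The second table of estimated counts per transcript was far shallower, with 4834 to 156500 counts per library (median 39687). Summed per gene it held 55 respiratory genes, partly under newer names, with between 22 and 1257 counts per library, or 0.651% of counts at the median. Transcripts of 1 gene often hold the same counts in that table, so a sum per gene may count a read more than once. Only 11 of the 55 respiratory genes passed the filter of edgeR, among 826 genes. None was called among the 9 groups (0.484% of all genes), in 8L minus 16La (0.484%), in 16Lv minus 8L (0.242%), between the arms (0.121%) or on hours of light (0.605%). At an unadjusted p under 0.05 there was 1 of 11 in 8L minus 16La and 0 in the other 4 comparisons, against between 4% and 6.66% of all genes. DESeq2 called 0 of the 11 in each of the 5.

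The gene with the smallest p in that table was NDUFB3, an accessory subunit of the membrane arm of complex I. It had 146 counts in all in 16La and 21 in 8L, and the medians, scaled to the CPM of that table, were 322 and 63.4, with 0 as the lowest value in both groups. The ranges overlapped, from 0 to 580 and from 0 to 282 CPM. The log2 change was -2.0 (SE 0.99, edgeR adjusted p = 0.998). In the CPM table the same gene had 687, 818 and 1020 CPM in 16La and 624, 724 and 881 CPM in 8L, a log2 change of -0.18 (SE 0.15). The tables were made and scaled separately, so these values stand side by side and their difference was not tested.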

How the data were processed

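The authors deposited CPM (counts scaled to a library total of 1000000) per gene for each bird, and a table of estimated counts per transcript (expected counts, not normalised). Per the submitters' processing notes, minimap2 2.17, Salmon 0.14.2 and edgeR 3.24.3 were used; the role of each tool and the build were not given in the sources used here, and no coordinates or sequences are reported. Date-like gene names (14), a spreadsheet error, were dropped. CPM values are whole multiples of the value of 1 read, which returned reads: 99.73% to 100.0% of values per library were whole within 0.1 read. Replicates 3 and 6 of 16Lv were averaged (chi-square per gene 0.954, next pair of 135 6.25); in the count table their columns differ (7.93, totals of 12130 and 50923 counts) and were kept apart.

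The 8268 genes that reached 10 CPM in 6 or more libraries were tested with limma 3.58.1 (limma-trend, R 4.3.3) on log2(CPM scaled by TMM factors + 1), in 1 fit of 9 group means with no covariate, with Benjamini-Hochberg adjustment over all genes in each of 18 comparisons; 95% intervals are limma's. A log2 change on this scale understates the change of low genes. Levels and sums are CPM of the library total unless TMM is named. Expected counts were rounded, summed per gene and tested with edgeR 4.0.16 quasi-likelihood F tests (filterByExpr, all 54 libraries), with DESeq2 1.42.0 as an alternative. The tests were also run on simulated counts with the same dispersion for every gene and no shift shared within a library. That setting is simpler than these data, so it does not show what changes these libraries would miss.

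The members, lists and comparisons were chosen with earlier results of these data known. Named genes are, per direction in 4 comparisons (8L with 16La, 16Lv with 8L, the arms, and the slope on hours of light), called genes up to 12, filled to 3 by p, and the 3 of smallest p among groups; called genes up to 6 in other comparisons; the 3 of highest mean CPM in complexes I, III, IV and V, all of complex II, and NDUFS3, NDUFB3, ATP5IF1, NDUFA4 and COX7A2L. The values of 1 gene that this rule names are not reported here; it stays in the fits and counts. Gene IDs are the files' own names, of which 37 of the 72 are in the RefSeq table of Coturnix japonica 2.1. Alternatives were another pseudocount (0.25), no filter or a filter of 30 CPM, other scalings, limma-voom and edgeR on recovered reads, only the compared groups, no averaging, and leaving out the 6 shallowest libraries or each library in turn; added after seeing the data were the transcript with most counts per gene, those 16Lv columns summed in the count table, leaving out the shallowest library of each group, log2 depth as a covariate, and a block by the order of the title numbers. The limit given for a count of 0 covers counting error alone.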

Additional observations from a re-analysis of the deposited data

Results flagged for a closer look

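Of 270 groups of values checked (24 genes and 6 sums over complexes in 9 groups), 17 (6.3%) held a library whose gap to its nearest neighbour was a larger share of the group's range than Dixon's 95% critical value. Chance alone flags about 5 in 100 such groups when they are independent. These groups share libraries, and the sums share genes, so the share of flags cannot be judged against that rate. No group mean was recomputed on the strength of these gaps, and what caused them was not tested.

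Replicate 5 of 14Lv stood above its group for 5 genes of complexes I, III and IV: NDUFS4 at 102.5 CPM (next 78.1), NDUFB4 at 270.01 CPM (next 212), NDUFB2 at 1469 CPM (next 1091), UQCRQ at 620.2 CPM (next 426) and COX7A2 at 1412 CPM (next 969). Replicate 1 of 10La stood above its group for NDUFB2 at 1686 CPM (next 1194), UQCR11 at 856 CPM (next 661) and ATP5I at 982 CPM (next 675). In complex II, SDHA was at 123 CPM in 16La replicate 1 (next 91.5) and at 39.8 CPM in 8L replicate 3 (next 76.97), and SDHC was at 0 CPM in 12La replicate 3 (next 11.9) and at 27.95 CPM in 14Lv replicate 6 (next 13.0).

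Single flags fell on NDUFB2 in 8L replicate 1 at 1351 CPM (next 1025), COX4I1 in 8L replicate 2 at 1494 CPM (next 1249), COX7A2 in the averaged replicates 3 and 6 of 16Lv at 1292 CPM (next 925), COX6A1 in 12La replicate 4 at 547 CPM (next 875) and ATP5G1, a gene of the c subunit, in 10Lv replicate 3 at 933 CPM (next 1577).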

How the results depend on the processing

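In 1475 counts of respiratory genes called under other settings, over 18 comparisons of the CPM table and 5 of the count table, the highest count was 0. The lowest adjusted p of any named gene was 0.334 (limma), for NDUFS3 between the arms with log2 depth as a covariate. The 5309 alternative values include those 1475 counts, sums and adjusted p-values, which cannot reverse. Only log2 changes of named genes could be marked as reversed. Of these 2 reversed, both between the arms without the shallowest library of each group: UQCRB to -0.0036 and ATP5S to -0.015. Sums moved by less than the SD of their group. Medians over the 71 genes moved by less than 0.21 log2 units, the spread of library medians within groups. That spread is wide for a difference of group means and far above the median slope of 0.0077 per hour. Staying within that spread therefore says little about how stable the medians are. Within that spread the sign of the median over the 71 genes turned with CPM of the library total in 16Lv minus 8L (-0.04), 10Lv minus 8L (0.04), 12Lv minus 10Lv (-0.09) and the slope on hours of light (-0.00074), and with RLE scaling in 12Lv minus 10Lv (-0.0093) and 16Lv minus 14Lv (0.0095). It also turned in 16Lv minus 8L when 1 library was left out (-0.05 to 0.06). NDUFB3 in 8L minus 16La of the count table ran from -2.80 to -1.72. The labels tie no birds across groups. A block by the order of the title numbers within a group, chosen after seeing the depths and fitted without the averaged 16Lv library, puts the shallow libraries of all groups but 16La in 1 block. It called 0 of the 71 genes in each of the 18 comparisons, and NDUFS3 between the arms was 0.83 (limma adjusted p = 0.542). That order is a hint from the data and not part of the design, and whether it marks a batch was not tested. ATP5SL, SDHC, ATP5S and NDUFS3 had the fewest reads over all libraries.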
